A study of Mus musculus with 32 samples.

Results

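The genes described here encode focal adhesion proteins and regulators of the actin cytoskeleton. They were named in a list of 44 genes, and each was represented by 1 probe set annotated to that gene symbol alone, the one of highest mean over the 24 arrays that carried no immunoprecipitated RNA. Of the 44 listed genes 39 had such a probe set, and 38 passed the filter on low values, out of 12590 genes with 1 symbol that passed it. The exception was Myh10, a nonmuscle myosin heavy chain, whose mean over the 24 arrays was 4.88, on the log2 scale used throughout, below the array median of 5.52. Fermt1, Ptk2, Rock2, Arpc3 and Actr2 were not analysed here.

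Microarrays were hybridized with RNA of E1KD cells, in which hnRNP E1, an RNA-binding protein encoded by Pcbp1, was stably knocked down with a short hairpin RNA, and of NMuMG cells, the wild-type parent, an epithelial line from normal murine mammary gland. Each line received TGFβ2 at 5 ng/ml for 24 h or was left untreated, and total RNA, the monosomal pool and the polysomal pool of a sucrose gradient were measured as 2 replicates each. RNA bound in cytosolic extracts of wild-type NMuMG cells, with and without TGFβ, was precipitated with an hnRNP E1 antibody or with control IgG, again as 2 replicates each. E1KD is 1 derivative line, so differences from NMuMG that come from hnRNP E1 and from the derivation of the line cannot be told apart, and the sources call the replicates biological without naming separate cultures, so that p-values measure the spread between these samples.

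Focal adhesions join integrins in the plasma membrane to actin filaments. Talin and kindlin bind the integrin tail, vinculin, zyxin and paxillin assemble on them, the kinase Src and its substrates signal from the site, and filaments are nucleated by formins and the Arp2/3 complex, lengthened by Ena/VASP proteins, severed by cofilin and gelsolin and pulled by nonmuscle myosin. In epithelial cells that undergo an epithelial to mesenchymal transition under TGFβ, cortical actin is rebuilt into stress fibers anchored at such sites. Ribosomes load on an mRNA one after another, so an mRNA in the polysomal pool carries several ribosomes, and the monosomal pool was collected here as the non-translating one.

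Promoters from 250 bases before to 50 bases after the start site were searched for 31 of the 38 genes (RefSeq, GRCm38.p6). The others had no promoter of full length in the part of the genome searched, which was also the part used for all genes. On both strands 4 motifs of factors known in adhesion or TGFβ biology were sought. They were the CArG box of serum response factor, GGAATG for TEAD factors, TGANTCA for AP-1 and CAGACA for Smad proteins. The CArG box lay in 2 of the 31 genes (Vcl and Fermt2), against 1.81% of all 27025 genes with a promoter searched, and GGAATG in 6 against 16.6%. TGANTCA was found in 3, against 8.97%, and CAGACA in 5, against 23.6%. Printed below are the genes whose total RNA rose with TGFβ in NMuMG and that held a match (Zyx, Evl and Myh9, of which Evl is shown by 1 of 2 start sites), followed by the 2 genes with a CArG box, both of which shifted towards polysomes. The genes to print were thus picked with their values known. Capitals mark the matches, and the promoters of Gsn and Pip4k2a, which also rose, held none of the 4 motifs.
Zyx, chr6:42349578-42349877, plus strand: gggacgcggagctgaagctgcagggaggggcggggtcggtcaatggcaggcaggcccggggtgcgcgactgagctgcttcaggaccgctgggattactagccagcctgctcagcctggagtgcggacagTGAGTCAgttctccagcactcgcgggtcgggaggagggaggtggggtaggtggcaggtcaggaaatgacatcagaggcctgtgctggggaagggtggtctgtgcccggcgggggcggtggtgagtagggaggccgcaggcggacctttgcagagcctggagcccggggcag
Evl, chr12:108554470-108554769, plus strand: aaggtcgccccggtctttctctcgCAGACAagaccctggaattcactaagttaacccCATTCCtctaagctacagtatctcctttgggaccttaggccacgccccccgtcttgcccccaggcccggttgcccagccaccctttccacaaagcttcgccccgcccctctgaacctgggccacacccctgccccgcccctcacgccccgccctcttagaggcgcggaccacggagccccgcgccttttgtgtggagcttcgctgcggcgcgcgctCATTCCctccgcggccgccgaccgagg
Myh9, chr15:77842126-77842425, minus strand: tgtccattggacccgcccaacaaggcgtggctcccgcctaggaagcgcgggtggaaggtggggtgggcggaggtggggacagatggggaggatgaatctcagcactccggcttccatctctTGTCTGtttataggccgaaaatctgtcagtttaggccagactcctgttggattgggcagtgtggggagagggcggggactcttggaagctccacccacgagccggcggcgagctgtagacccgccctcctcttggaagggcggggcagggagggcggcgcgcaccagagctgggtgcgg
Vcl, chr14:20929148-20929447, plus strand: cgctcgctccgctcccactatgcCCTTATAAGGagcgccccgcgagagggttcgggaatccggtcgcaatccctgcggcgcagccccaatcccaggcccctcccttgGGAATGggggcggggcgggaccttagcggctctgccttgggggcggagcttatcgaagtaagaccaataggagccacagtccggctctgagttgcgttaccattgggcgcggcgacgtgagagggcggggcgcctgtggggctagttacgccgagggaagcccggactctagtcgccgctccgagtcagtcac
Fermt2, chr14:45530016-45530315, minus strand: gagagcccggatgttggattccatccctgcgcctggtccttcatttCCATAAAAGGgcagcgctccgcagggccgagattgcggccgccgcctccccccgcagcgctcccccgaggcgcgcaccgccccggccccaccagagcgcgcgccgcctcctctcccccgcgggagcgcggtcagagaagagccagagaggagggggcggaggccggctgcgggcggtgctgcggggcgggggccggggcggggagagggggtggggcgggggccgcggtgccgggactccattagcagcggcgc
The capitals are TGAGTCA in Zyx, starting 121 bases before the start site, and CAGACA with 2 copies of the reverse complement of GGAATG in Evl. Myh9 held the reverse complement of CAGACA 129 bases before the start, Vcl a CArG box 227 bases before it with GGAATG at 143, and Fermt2 a CArG box at 204. A match is a description of these letters and not a site of binding.

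Pcbp1 was measured first. It stood at 9.55 and 9.33 in total RNA of TGFβ-treated E1KD cells and at 10.79 and 10.86 in untreated E1KD cells, against 13.14 and 13.14 in TGFβ-treated and 13.08 and 13.12 in untreated NMuMG cells. All E1KD arrays lay below all NMuMG arrays. Of the epithelial markers 13 of 15 passed the filter on low values, of the mesenchymal 9 of 16, of the immune cell 4 of 9 and of the endothelial 1 of 7. Replicates correlated at 0.974 to 0.998 (Pearson, across probe sets). The 2 monosomal arrays of untreated NMuMG stood apart from the other 14 arrays of ribosomal RNA: their interquartile range was 3.70 and 3.81, against 2.81 to 3.34, their correlation with total RNA 0.933 and 0.938, against 0.721 to 0.907, and the 3′ minus 5′ difference of the Gapdh control 0.51 and 0.45, against -0.04 to 0.13. Every comparison that uses them is given below with what can be had without them.

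By the probe sets used, TGFβ raised 5 of the 38 genes in total RNA of NMuMG and lowered none. The mean over the probe sets of each gene gave 4 higher and 1 lower, against 8.3% of all genes. Gsn (gelsolin, which severs and caps filaments) had 11.35 and 11.38 in TGFβ-treated cells, against 10.10 and 10.13 in untreated cells, an increase of 1.25 ± 0.08 (log2 difference ± standard error, adjusted p = 1.17e-07 from limma). Pip4k2a, a phosphoinositide kinase, had 9.39 and 9.53, against 8.48 and 8.51. Zyx (zyxin) had 9.51 and 9.70, against 8.94 and 9.06. In none of these genes did the arrays of the groups overlap. Evl, an Ena/VASP protein, had 9.39 and 9.58, against 8.96 and 9.09, and Myh9, the heavy chain of nonmuscle myosin IIA, 13.07 and 13.08, against 12.64 and 12.69. The increases were 0.96 ± 0.19, 0.61 ± 0.15, 0.46 ± 0.13 and 0.41 ± 0.09 (adjusted p = 0.00427, 0.0198, 0.0467 and 0.0141 in the order Pip4k2a, Zyx, Evl, Myh9).

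The 5 genes were 13.2% of the 38, against 6.42% of all genes called in either direction, and the median of the 38 was 0.05, against 0 for all genes. The other 33 genes ran from -0.29 (Diaph1, a formin) to 0.44 (Enah). By role, 2 of the 6 crosslinking, capping and motor genes rose, and 1 each of the integrin linkage, adhesion signalling, and nucleation and elongation genes. A fit of the total RNA arrays of NMuMG alone called 7 of the 38, all higher, against 16.2% of all genes. With all 32 arrays in 1 fit 1 was called, against 2.94%. No excess over all genes is read from these counts. Only Gsn passed in every one of the 4 fits that left out 1 array: the count was 2 without either untreated array or without the first TGFβ array, and 1 without the second TGFβ array. Mesenchymal markers moved with these genes, 4 of 9 higher and none lower, with a summed level of 14.75 to 14.77 in TGFβ-treated and 14.43 to 14.47 in untreated cells. Of 13 epithelial markers 1 was higher and 1 lower. Their summed level was 15.84 to 15.85 in TGFβ-treated and 15.80 to 15.81 in untreated cells. The part of the markers in the result was not tested. Among 43 other focal adhesion genes 8 rose and none fell, led by Tns1 (tensin, 1.08), Pdlim7 (0.82) and Lims2 (0.79). Among 50 other actin regulators 2 rose and 2 fell, with Mylk, myosin light chain kinase, at -1.63, Fmnl2 at -1.24 and Daam1 at 1.14, both formins.

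Between the untreated lines, total RNA of 14 genes differed. The untreated NMuMG arrays are the same as in the comparison above, so that the values for Gsn, Zyx, Pip4k2a, Evl and Myh9 share them. Gsn had 12.02 and 12.06 in E1KD, against 10.10 and 10.13 in NMuMG (1.92 ± 0.08, a 3.80-fold difference, adjusted p = 4.86e-11 from limma). Zyx had 10.18 and 10.21, against 8.94 and 9.06 (1.19 ± 0.15, adjusted p = 9.48e-06). Both were above every NMuMG array of either treatment. Enah, an Ena/VASP protein, had 12.49 and 12.50, against 11.70 and 11.74 (0.78 ± 0.26), Vcl (vinculin) 12.08 and 12.14, against 11.39 and 11.41 (0.71 ± 0.18), and Myh9 13.28 and 13.35, against 12.64 and 12.69 (0.65 ± 0.09). Pip4k2a, Bcar1 (the Src substrate p130Cas) and Evl were also higher, by 0.64, 0.64 and 0.59.

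In the other direction Wasl (N-WASP, which activates Arp2/3) had 11.35 and 11.32 in E1KD, against 12.26 and 12.23 in NMuMG, a difference of -0.91 ± 0.16 (adjusted p = 0.000387 from limma). Vasp had 10.44 in both E1KD arrays, against 11.24 in both NMuMG arrays (-0.80 ± 0.09). Limk2, a kinase that inactivates cofilin, had 7.66 and 7.88, against 8.37 and 8.49 (-0.66 ± 0.13), and Pfn1 (profilin) 11.71 and 11.72, against 12.28 and 12.37 (-0.61 ± 0.10). Src had 9.08 and 9.05, against 9.39 and 9.51 (-0.38 ± 0.11). The groups did not overlap in any of them. Parva (α-parvin) was lower by the probe set used, at -0.34, and stood at 0.16 as the mean of its 2 probe sets.

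In all, 8 genes were higher and 6 lower, 14 of 38 or 36.8%, against 32.9% of all genes. The share was thus near that of all genes. The median of the 38 was 0.04. Centring the arrays on the Actb and Gapdh control probe sets gave 12 higher and 5 lower, and leaving out the second untreated E1KD array gave 9 called. Markers moved too: 7 of 9 mesenchymal markers were higher and 7 of 13 epithelial markers lower, with summed levels of 15.32 to 15.33 in E1KD and 14.43 to 14.47 in NMuMG for the mesenchymal list and 15.56 to 15.57 and 15.80 to 15.81 for the epithelial one. Their part in these differences was not tested, and fewer cells of a type and less RNA per cell cannot be told apart in bulk RNA. Of the other focal adhesion genes 15 were higher and 8 lower, among them Trip6 (5.16), Fyn (4.73) and Pdlim1 (3.06). Of the other actin regulators 10 were higher and 8 lower, with Fmnl2 at -4.02, Vil1 (villin) at -3.48 and Cdc42ep3 at 2.67.

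In total RNA of E1KD cells TGFβ changed 10 genes. Vasp had 11.22 and 11.23 in TGFβ-treated E1KD cells, against 10.44 in both untreated arrays (0.79 ± 0.09, adjusted p = 1.95e-05 from limma). Pfn1 had 12.32 and 12.33, against 11.71 and 11.72 (0.61 ± 0.10). Treated E1KD cells thus reached values of Vasp near the 11.24 of untreated NMuMG, and of Pfn1 near its 12.28 and 12.37. Tes (testin) had 11.02 and 10.98, against 11.86 and 11.84 (-0.85 ± 0.09), and Zyx 9.49 and 9.52, against 10.18 and 10.21 (-0.69 ± 0.15). Src had 8.67 and 8.69, against 9.08 and 9.05 (-0.38 ± 0.11). Cttn (cortactin), Arpc5 (a subunit of the Arp2/3 complex) and Ssh1 (slingshot, a cofilin phosphatase) each rose by 0.43, Gsn by 0.40 and Parva by 0.37.

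These 10 genes, 7 higher and 3 lower, were 26.3% of the 38, against 23.2% of all genes. Centring on Actb and Gapdh lowered every value by 0.16 and gave 4 higher and 7 lower. Each array left out in turn gave 5 or 6 called, 5 without the first untreated or the second TGFβ-treated array and 6 without either of the others. The other focal adhesion genes had 12 higher and 5 lower, with Fermt3 at -1.57, Bcar3 at 0.95 and Fyn at -0.93. Of the other actin regulators 10 rose and 6 fell, with Fhod1 at 1.47, Twf2 at 1.19 and Fmnl2 at 0.89.

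The response of total RNA to TGFβ differed between the lines for 6 genes, tested as E1KD minus NMuMG. Zyx differed most, by -1.29 ± 0.21 (adjusted p = 0.00056 from limma): it fell in E1KD and rose in NMuMG. Tes differed by -0.93 ± 0.13, Gsn by -0.85 ± 0.12 and Myh9 by -0.48 ± 0.13. Vasp and Pfn1 differed by 0.76 each, having risen in E1KD and stayed between 11.24 and 11.27 (Vasp) and between 12.14 and 12.37 (Pfn1) in all NMuMG arrays. The 6 genes were 15.8% of the 38, against 13.2% of all genes, with 2 higher and 4 lower, or 2 and 7 when centred on Actb and Gapdh. A fit of the 8 total RNA arrays alone called 13, against 31.4% of all genes. Mesenchymal markers moved with this difference, 4 of 9 lower and none higher, and of the epithelial markers 2 were higher and 2 lower. The summed mesenchymal level was 15.22 in TGFβ-treated and 15.32 to 15.33 in untreated E1KD cells, and the epithelial one 15.75 and 15.56 to 15.57, and their part in the difference was not tested. Among the other focal adhesion genes 3 were higher and 6 lower (Csrp1 -1.54, Pdlim7 -1.46, Fermt3 -1.41), and of the other actin regulators 5 and 4 (Fmnl2 2.14, Mylk 1.52, Daam1 -1.20).

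**Figure D1:**
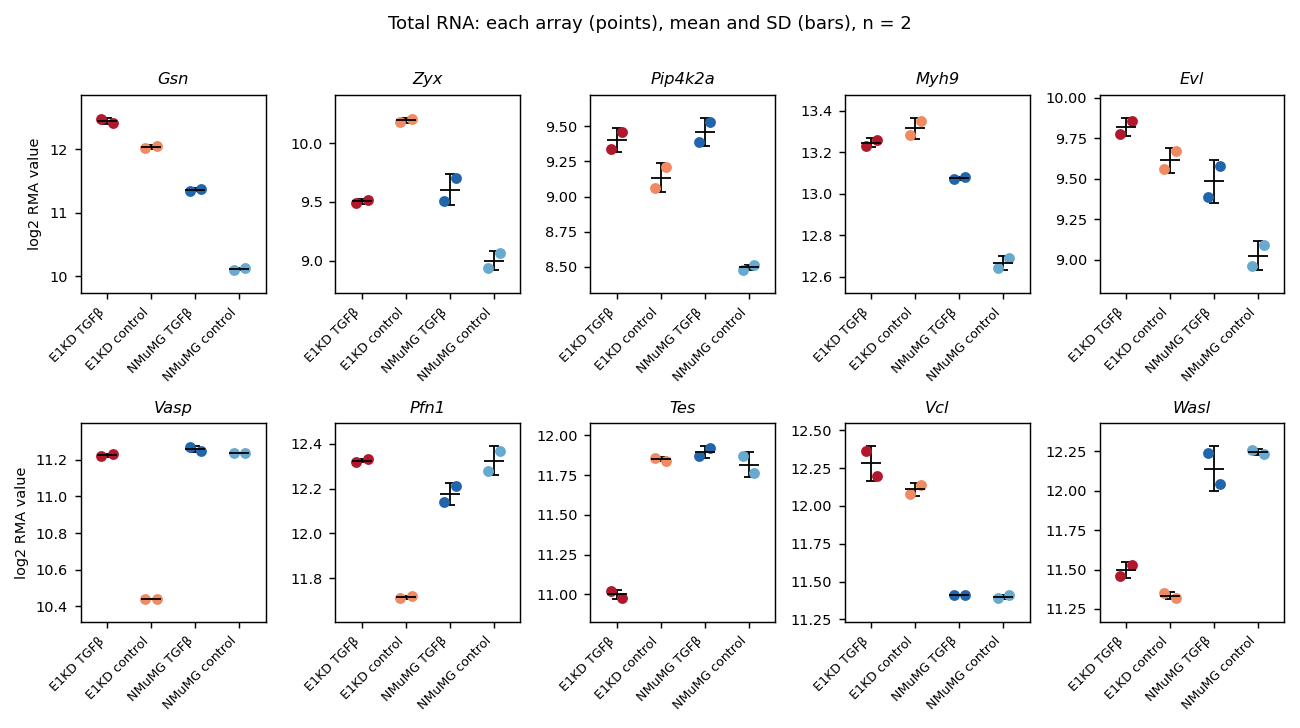
Total RNA of 10 genes in TGFβ-treated and untreated E1KD and NMuMG cells. The vertical axis is the deposited log2 value, points are arrays and bars the mean and SD of 2 arrays. Gsn and Zyx of untreated E1KD lie above both NMuMG groups, and Vasp and Pfn1 of untreated E1KD lie below the other 3 groups.

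Of the 38 genes 20 passed in none of these 4 total RNA comparisons. They included the talins Tln1 and Tln2, the kindlin Fermt2, Ilk and Lims1 of the complex of integrin-linked kinase, the crosslinkers Flna and Actn4, cofilin (Cfl1), the Arp2/3 subunits Arpc2 and Actr3, and Wasf2, which activates that complex. All of them but Pxn passed in at least 1 of the comparisons that follow.

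In the polysomal pool of NMuMG cells TGFβ raised 18 genes and lowered 3. Pip4k2a had 9.94 and 10.08 in TGFβ-treated cells, against 8.02 and 7.42 in untreated cells (2.29 ± 0.19, a 4.89-fold increase, adjusted p = 3.27e-07 from limma). Tln1 (talin) had 9.10 and 8.70, against 8.15 and 7.38 (1.13 ± 0.22). Gna13, the α subunit of a heterotrimeric G protein, had 10.98 and 10.89, against 10.11 and 9.75 (1.01 ± 0.15). The groups did not overlap, though the 2 untreated arrays of Pip4k2a and Tln1 lay 0.60 and 0.77 apart. Gsn had 10.20 and 10.18, against 9.40 and 9.32 (0.83 ± 0.08), and Cttn 12.07 and 12.01, against 11.39 and 11.14 (0.77 ± 0.11).

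The 3 genes that fell, by the probe sets used, were Limk2, Limk1 and Rock1. Limk2 had 8.97 and 8.89, against 10.23 and 10.21 (-1.29 ± 0.13, adjusted p = 2.67e-06 from limma), Limk1 8.06 and 7.73, against 8.27 and 8.83 (-0.65 ± 0.20), and Rock1 8.25 and 7.95, against 8.78 and 8.63 (-0.60 ± 0.18). The 4 probe sets of Rock1 disagreed, running from -0.60 to 0.65 with 1 passing in the opposite direction, so that no direction is drawn for this gene. The kinase ROCK1 acts upstream of the LIM kinases. Ssh1, the phosphatase that opposes LIM kinases, rose by 0.46. The probe sets of Limk2 ran from -1.29 to 0.28 and those of Ssh1 from -0.12 to 1.87, with none passing in the opposite direction. Those of Limk1 ran from -0.65 to -0.01. No joint change of these genes is read from the values.

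The 21 genes were 55.3% of the 38, against 33.7% of all genes, and the median of the 38 was 0.30, against 0.02. In the integrin linkage group 5 of 10 rose and none fell, in nucleation and elongation 6 of 11, and in crosslinking, capping and motors 3 of 6. The log2 differences do not use the monosomal arrays that stood apart, whereas the standard errors and calls share a variance estimated over all 24 arrays. A fit of the 4 polysomal arrays of NMuMG alone called 6 genes, 5 higher and 1 lower, against 12.2% of all genes, and leaving out the second TGFβ-treated array gave 13. Of the other focal adhesion genes 15 rose and 3 fell (Bcar3 1.14, Trip6 -1.03, Nck2 0.97), and of the other actin regulators 14 and 6 (Cdc42ep3 1.53, Daam1 1.26, Fhod1 1.16).

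In the monosomal pool of NMuMG cells 22 genes were lower with TGFβ and 9 higher, 31 of 38 or 81.6%, against 79.5% of all genes. The share of genes called was thus near that of all genes. The median of the 38 was -0.60, against -0.01. Fermt2 had 6.43 and 6.73 in TGFβ-treated cells, against 9.05 and 9.19 in untreated cells (-2.54 ± 0.15, adjusted p = 1.72e-09 from limma). Vcl had 6.97 and 7.76, against 9.39 and 9.49 (-2.07 ± 0.18), Rock1 7.56 and 8.28, against 9.93 and 10.05 (-2.07 ± 0.18), Cap1, an actin-recycling protein, 8.23 and 8.69, against 10.32 and 10.27 (-1.84 ± 0.14), and Enah 9.24 and 10.25, against 11.48 and 11.65 (-1.82 ± 0.26). Each treated array lay below both untreated ones.

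The genes that rose in the monosomal pool were led by Limk2, with 9.85 and 10.09 in TGFβ-treated and 8.41 and 8.46 in untreated cells (1.53 ± 0.13). Gsn averaged 11.02 ± 0.03, against 9.86 ± 0.04 (SD, n = 2 each; 1.16 ± 0.08), Flna (filamin A) 10.51 and 10.62, against 9.51 and 9.38 (1.12 ± 0.11), Src 11.47 and 11.19, against 10.23 and 10.22 (1.11 ± 0.11), and Limk1 8.50 and 8.65, against 7.68 and 7.50 (0.98 ± 0.20). In each of the 5 genes both treated arrays lay above both untreated ones. The untreated arrays of this comparison are the 2 that stood apart, so that their difference from the other arrays and the effect of TGFβ cannot be told apart in it. Among other focal adhesion genes 11 rose and 23 fell (Yes1 -2.20, Crk -2.14, Lpp -1.93), and of the other actin regulators 11 and 32 (Tmod3 -2.99, Wipf1 -2.10, Ppp1r12a -2.07).

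The balance between the pools was taken as polysomal minus monosomal signal, and its change with TGFβ is called the polysome shift. In NMuMG cells 24 genes shifted towards polysomes and 6 away, 78.9% of the 38, against 75.2% of all genes. Of all genes 41.3% were higher and 33.9% lower, and their median was 0.04, against 1.03 for the 38. The polysomal minus monosomal difference of Pip4k2a was 2.00 with TGFβ and -1.72 without, a shift of 3.72 ± 0.27 (adjusted p = 9.9e-09 from limma). That of Fermt2 was 1.53 with and -1.44 without (2.96 ± 0.22), of Vcl 1.47 and -1.20 (2.67 ± 0.26), of Cap1 1.08 and -1.40 (2.48 ± 0.19), and of Gna13 0.60 and -1.68 (2.28 ± 0.21). In each of these genes the difference was above 0 with TGFβ and below 0 without. Without TGFβ 6 of the 38 genes had more signal in the polysomal than in the monosomal pool, against 24 with TGFβ. The same count was not made over all genes. The pools are separate arrays of unlike spread, so that 0 marks no absolute balance between them. No movement particular to these genes is read from the counts. Asap1, Gna13 and Pip4k2a, among the 24 that shifted, belong to a set the study chose on these arrays for polysome association and are not independent evidence. Markers shifted as well, 5 of 9 mesenchymal ones towards polysomes and none away, and 3 of 13 epithelial ones towards polysomes and 6 away, and their part in the result was not tested.

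Limk2 shifted most in the other direction, with a polysomal minus monosomal difference of -1.04 with TGFβ and 1.79 without (-2.82 ± 0.18). Limk1 shifted by -1.64 ± 0.28, Flna by -0.88 ± 0.16, Src by -0.87 ± 0.16 and Ilk, integrin-linked kinase, by -0.52 ± 0.17. In the nucleation and elongation group 9 of 11 genes shifted towards polysomes and none away: Enah, Arpc5, Cttn, Arpc2, Wasl, Actr3, Wasf2, Evl and Diaph1, by 0.56 to 2.19. Diaph1, the smallest of them, stood at -0.15 as the mean of its probe sets. In the integrin linkage group 4 of 10 shifted towards polysomes (Fermt2, Vcl, Lims1 and Tln1) and Ilk away, and Pxn (paxillin), Zyx, Tes, Parva and Tln2 did not pass.

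This shift rests on the untreated monosomal arrays of NMuMG, whose wider spread and Gapdh difference are given above. It also rests on the TGFβ-treated ones, whose replicates correlated at 0.974, the lowest of all conditions. Their correlation with total RNA was 0.721 and 0.789. The part of these arrays in the shift was not tested. With total RNA in place of the monosomal arrays of either treatment, 7 genes were called, 5 higher and 2 lower, against 14% of all genes. The median of the 38 was then 0.23. The 7 were Pip4k2a at 1.33 ± 0.27 (adjusted p = 0.00389 from limma), Cap1 at 0.82, Arpc2 at 0.69, Wasf2 at 0.66 and Cttn at 0.49, and Limk2 at -1.07 and Gsn at -0.42. Fermt2 and Vcl stood at 0.27 and 0.59 and did not pass, while Ilk (0.29), Src (0.15), Flna (0.09), Rock1 (-0.57) and Enah (-0.07) changed sign. After quantile normalization, which gives every array 1 distribution, 23 genes shifted towards polysomes and 10 away, and the median was 0.65.

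Different probe sets of a gene did not always move alike. Of the 30 genes called for the shift in NMuMG 25 had other probe sets past the filter, in 15 of them all had the sign of the one used, and in 6 at least 1 passed with the opposite sign. For Gna13 the 7 probe sets ran from -1.03 to 2.89, for Myh9 the 5 from -1.66 to 1.71, and for Pip4k2a the 4 from -1.0 to 4.67, of which the 3 from 1 cDNA all lay at 3.59 or above. The 2 of Fermt2 (2.76 and 2.96), of Cap1 (1.73 and 2.48) and the first pair of Limk2 by mean level (-2.82 and -1.07) ran the same way, and the third of Limk2 stood at 0.24 and did not pass. Other focal adhesion genes shifted too, 22 towards polysomes and 6 away (Crk 2.81, Yes1 2.44, Dock1 2.41), as did other actin regulators, 34 and 7 (Cdc42ep3 3.34, Daam1 3.22, Tmod3 3.12).

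**Figure D2:**
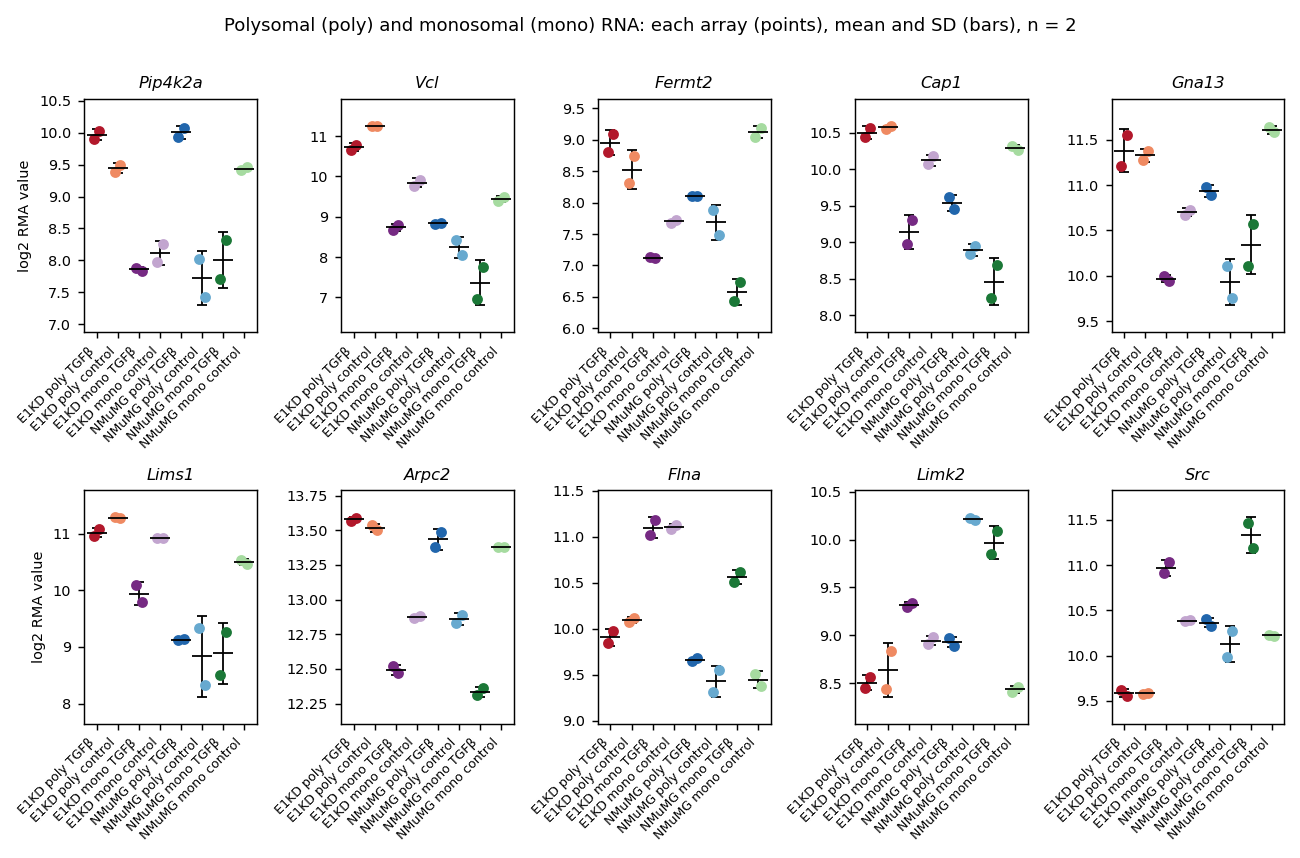
Polysomal and monosomal RNA of 10 genes in both lines, with and without TGFβ. The vertical axis is the deposited log2 value, points are arrays and bars the mean and SD of 2 arrays. In Pip4k2a, Vcl, Fermt2, Cap1, Gna13 and Lims1 the untreated NMuMG monosomal arrays lie above the untreated polysomal ones, whereas in untreated E1KD the polysomal arrays lie above the monosomal ones.

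In E1KD cells 13 genes shifted towards polysomes and 3 away, 42.1% of the 38 against 32.6% of all genes, with a median of 0.40, against 0.07. The polysomal minus monosomal difference of Rock1 was 0.59 with TGFβ and -0.45 without (1.03 ± 0.25, adjusted p = 0.00755 from limma), of Fermt2 1.82 and 0.83 (1.00 ± 0.22), of Wasl 1.28 and 0.27 (1.00 ± 0.23), of Cap1 1.36 and 0.45 (0.91 ± 0.19), and of Pip4k2a 2.11 and 1.33 (0.78 ± 0.27). Apart from Rock1 these differences were above 0 already without TGFβ. Pfn1 shifted away by -0.70 ± 0.15, Src by -0.58 ± 0.16 and Limk2 by -0.51 ± 0.18.

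Quantile normalization gave 11 towards polysomes and 6 away, and without the second TGFβ-treated polysomal array 10 genes were called. With total RNA as the denominator only Tes (0.77) was higher and 4 genes were lower, Pfn1 (-1.02), Parva (-0.70), Gsn (-0.60) and Cttn (-0.52), against 12.6% of all genes, and the median was -0.05. The count was thus near the share of all genes. Of the genes called with the monosomal pool, Rock1 (-0.25), Wasl (-0.14), Cap1 (-0.18), Arpc5 (-0.13), Actr3 (-0.06), Actn4 (-0.34), Src (0.39) and Limk2 (0.12) changed sign. Cttn, which had not passed with that pool, changed sign as well. The list of other focal adhesion genes had 14 that shifted towards polysomes and 4 away (Dock1 1.23, Crk 1.11, Lpp 1.03), and of the other actin regulators 14 and 4 (Ppp1r12a 1.66, Abi1 1.27, Cobl -1.18).

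The shift itself was tested between the lines, as E1KD minus NMuMG, and 17 genes differed, 14 lower in E1KD and 3 higher. Pip4k2a differed by -2.94 ± 0.38 (adjusted p = 3.66e-05 from limma), Vcl by -2.09 ± 0.37, Fermt2 by -1.97 ± 0.31, Enah by -1.57 ± 0.51 and Cap1 by -1.57 ± 0.27. Limk2 differed by 2.31 ± 0.26, Limk1 by 1.04 ± 0.39 and Flna by 0.70 ± 0.22. The 17 genes were 44.7% of the 38, against 40% of all genes, with a median of -0.49, against -0.08. In nucleation and elongation 7 of 11 were lower and all 11 values lay below 0. With total RNA as the denominator 10 genes differed, against 15.3% of all genes, 8 lower (Tln1, Vcl, Wasf2, Cttn, Pfn1, Cap1, Parva and Vasp, from -1.36 to -0.65) and 2 higher (Limk2 1.19, Tes 0.62). Pip4k2a (-1.07), Fermt2 (-0.27) and Limk1 (0.55) then no longer passed, with adjusted p = 0.0739, 0.663 and 0.429 from limma. Enah (0.06), Flna (-0.20) and Ssh1 (0.27) changed sign. Of the other focal adhesion genes 2 were higher and 19 lower (Pdlim5 -1.82, Crk -1.71, Yes1 -1.63), and of the other actin regulators 4 and 20 (Tmod3 -2.63, Cdc42ep3 -2.57, Daam1 -2.08).

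**Figure D3:**
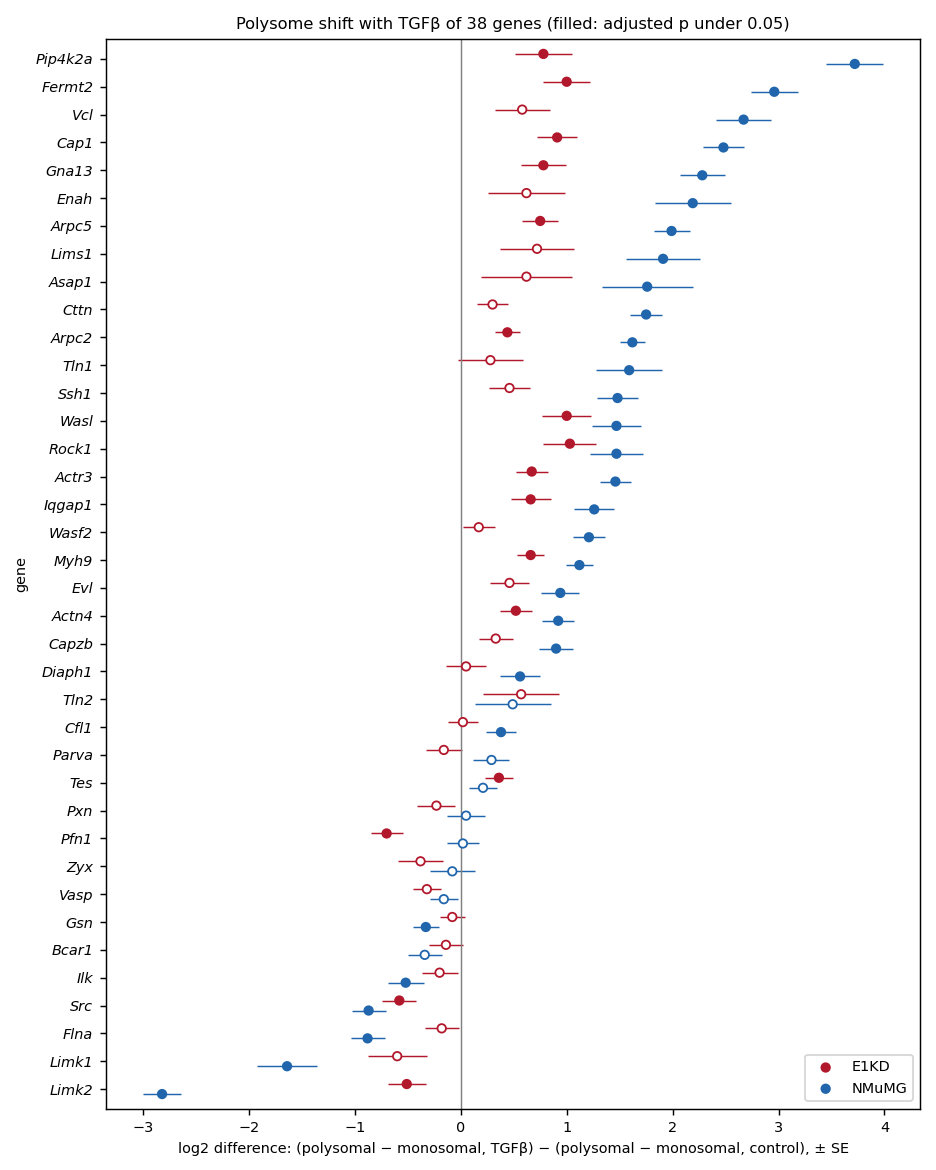
Polysome shift with TGFβ of the 38 genes, on the log2 scale with standard errors, in E1KD (red) and NMuMG (blue), ordered by the value in NMuMG. Filled points passed at an adjusted p under 0.05, and the NMuMG points run from -2.82 (Limk2) to 3.72 (Pip4k2a), against -0.70 (Pfn1) to 1.03 (Rock1) for E1KD.

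In untreated cells the lines differed in the balance between the pools. The polysomal minus monosomal difference of untreated cells, E1KD less NMuMG, was higher for 25 genes and lower for 5, 78.9% of the 38 against 65.1% of all genes, with a median of 0.81, against 0.01. Of all genes 36.6% were higher and 28.6% lower. Pip4k2a had a difference of 1.33 in E1KD and of -1.72 in NMuMG (3.05 ± 0.27, adjusted p = 1.47e-07 from limma). Vcl had 1.41 and -1.20 (2.61 ± 0.26), Gna13 0.63 and -1.68 (2.31 ± 0.21), Fermt2 0.83 and -1.44 (2.26 ± 0.22), and Lims1 (PINCH, a partner of integrin-linked kinase) 0.36 and -1.66 (2.02 ± 0.35). Without TGFβ 24 of the 38 genes had more polysomal than monosomal signal in E1KD, against 6 in NMuMG, again without a count over all genes. The 5 lower genes were Limk2 (-2.09 ± 0.18), Flna (-1.0 ± 0.16), Src (-0.71 ± 0.16), Vasp (-0.67 ± 0.13) and Ilk (-0.41 ± 0.17). Of the 30 genes 4 had another probe set that passed with the opposite sign. They were Gna13, whose 7 probe sets ran from -1.30 to 3.14, and Pip4k2a, whose 4 ran from -0.69 to 3.75. The others were Arpc2, whose 2 stood at -1.05 and 1.16, and Diaph1, whose 3 ran from -0.69 to 0.99. This comparison shares the untreated NMuMG arrays with the shift of NMuMG, so the 2 are not independent of each other.

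The comparison was also made without any monosomal array, as polysomal minus total RNA, an alternative chosen after the data had been seen. Then 23 genes were higher in E1KD and 3 lower, against 37.8% of all genes, with a median of 0.51. Vcl had 11.24 and 11.25 in the untreated polysomal pool of E1KD, against 8.43 and 8.05 in that of NMuMG, and its polysomal minus total difference was 2.30 ± 0.26 higher (adjusted p = 6.58e-06 from limma). Lims1 was 1.81 ± 0.35 higher, Actn4 (α-actinin 4) 1.77 ± 0.15, Cap1 1.63 ± 0.19, Gna13 1.48 ± 0.21, Asap1 1.34 ± 0.43 and Gsn 1.32 ± 0.12. Evl (-1.16), Limk2 (-0.92) and Ssh1 (-0.65) were lower. Flna turned round, at 0.49 ± 0.16, against -1.0 with the monosomal pool, and Ssh1 did so too. Quantile normalization of the first form gave 18 higher and 8 lower, and was not run on the form with total RNA. The untreated polysomal arrays also differed in spread between the lines. Their interquartile ranges were 3.13 and 3.19 in E1KD and 2.99 and 2.87 in NMuMG, and the part of this in the result was not tested.

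By role, in the first form, 9 of 11 nucleation and elongation genes were higher and Vasp lower, and 6 of 10 integrin linkage genes higher and Ilk lower. Among the 9 were Arpc2 and Diaph1, whose probe sets disagreed as given above. Diaph1 stood at -0.12 as the mean of its probe sets. Adhesion signalling had 3 of 5 higher (Pip4k2a, Asap1 and Bcar1) and Src lower. Crosslinking, capping and motors had 3 of 6 higher (Cap1, Actn4 and Capzb, a capping protein) and Flna lower. Of the other focal adhesion genes 24 were higher and 5 lower (Pdlim5 2.46, Ptpn11 2.32, Yes1 2.28), and of the other actin regulators 32 and 6 (Tmod3 2.54, Daam1 2.34, Cdc42ep3 2.34).

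**Figure D4:**
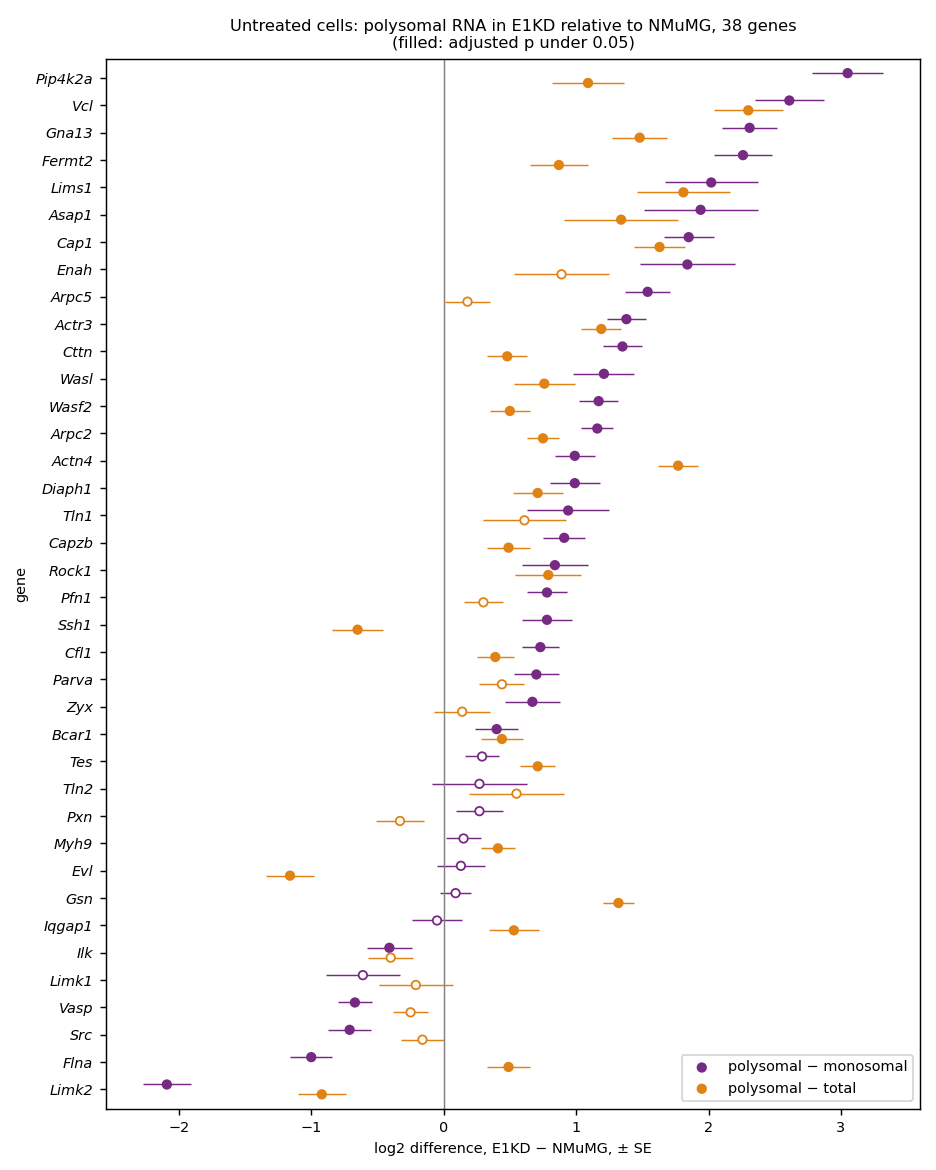
Polysomal RNA of the 38 genes in untreated cells, E1KD less NMuMG, relative to the monosomal pool (purple) and to total RNA (orange), on the log2 scale with standard errors. Filled points passed at an adjusted p under 0.05, and 25 purple and 23 orange ones lie above 0.

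Asap1 (an ARF GTPase-activating protein at adhesions), Gna13 and Pip4k2a are the 3 genes that the study had selected on these arrays. In total RNA of NMuMG Asap1 and Gna13 stood at 0.17 and 0.41 with TGFβ and did not pass, while Pip4k2a rose by 0.96. In the polysomal pool of NMuMG Asap1 had 7.56 and 7.60 with TGFβ, against 7.71 and 6.93 without, groups that overlap (0.26 ± 0.31, adjusted p = 0.573 from limma). Its shift of 1.76 ± 0.43 lay in the monosomal pool, with 6.87 and 8.20 with TGFβ, against 8.91 and 9.17 without. The untreated arrays of that pool are those that stood apart. With total RNA as the denominator Asap1 stood at 0.09 ± 0.43 and Gna13 at 0.60, and neither passed (adjusted p = 0.935 and 0.0748 from limma). Pip4k2a passed there, at 1.33. The shift of Asap1 in E1KD was 0.62 and did not pass (adjusted p = 0.292 from limma).

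Among RNAs precipitated with the hnRNP E1 antibody 6 of the 38 genes were higher than with IgG and 3 lower, 23.7% against 26.8% of all genes. The share was thus not above that of all genes. Flna ran from 10.08 to 10.51 in the 4 hnRNP E1 arrays, against 9.40 to 9.64 in the 4 IgG arrays (0.85 ± 0.11, adjusted p = 0.00274 from limma). Tln2 ran from 8.29 to 8.60, against 7.46 to 7.82 (0.76 ± 0.11), Bcar1 from 12.37 to 12.60, against 11.82 to 11.94 (0.58 ± 0.08), Diaph1 from 9.31 to 9.49, against 8.73 to 8.96 (0.56 ± 0.07), and Limk2 from 8.58 to 8.77, against 8.18 to 8.41 (0.35 ± 0.08). Cfl1 was higher by 0.26. These ranges did not overlap.

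Lims1 ran from 10.22 to 10.53 with hnRNP E1, against 10.95 to 11.06 with IgG (-0.59 ± 0.09), and Arpc5 from 11.78 to 12.13, against 12.36 to 12.46 (-0.48 ± 0.09). Wasl was lower by 0.52 on the log2 scale, with ranges that overlapped. Gna13 stood at -0.54 (adjusted p = 0.0518 from limma), Pip4k2a at -0.30 and Asap1 at 0.31, none of which passed. Of the 9 genes called 7 had other probe sets past the filter. In 3 of them all had the sign of the one used, and in none did another pass with the opposite sign. The other probe set of Tln2 stood at 0.04. Those of Diaph1 ran from -0.16 to 0.56 and those of Lims1 from -0.59 to 0.29. The count of 9 became 5 without the second untreated IgG array, 14 with an intensity trend in the variance (28.1% of all genes) and 17 in a fit of all 32 arrays (29.9%). Other focal adhesion genes were higher in 10 cases and lower in none (Parvb 1.01, Git1 0.79, Trip6 0.72), and of the other actin regulators 10 and 6 (Diaph3 0.77, Fhod1 0.73, Baiap2 0.71).

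The TGFβ change within the hnRNP E1 immunoprecipitate depends on labels that conflict. The titles put 1 array numbered 13 and 1 numbered 14 in each condition, whereas the descriptions put both arrays numbered 13 with the untreated cells. As titled, no gene of the 38 passed, against 0% of all genes (limma, with 1 of the 38 and 403 probe sets of all at an unadjusted p under 0.05). Within each titled condition the 2 arrays lay far apart. Pip4k2a had 8.38 and 8.56 in the arrays numbered 14 and 9.52 and 9.42 in those numbered 13, Zyx 9.39 and 9.13 against 10.17 and 10.21, and Gsn 10.78 and 10.84 against 11.57 and 11.81. With IgG the TGFβ-treated arrays were higher than the untreated ones for these 3 genes, at 9.56 and 9.48 against 9.15 and 8.89 for Pip4k2a, 9.61 and 9.80 against 8.63 and 8.66 for Zyx, and 11.30 and 11.24 against 10.78 and 10.79 for Gsn.

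With the number 13 as untreated and 14 as TGFβ-treated, 10 genes passed, 1 higher (Wasl, 0.51) and 9 lower, against 16.5% of all genes. The lower ones were Pip4k2a (-1.0), Zyx (-0.93), Gsn (-0.88), Gna13 (-0.58), Ssh1 (-0.52), Fermt2 (-0.49), Myh9 (-0.42), Evl (-0.36) and Enah (-0.32). Gsn, Zyx, Pip4k2a, Myh9 and Evl are the genes that TGFβ raised in total RNA of these cells. Which labels hold was not settled, so no direction is given for this change. In the comparison of antibodies the same assignment by number left the differences as they were and called 21 genes, against 44.1% of all genes.

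**Figure D5:**
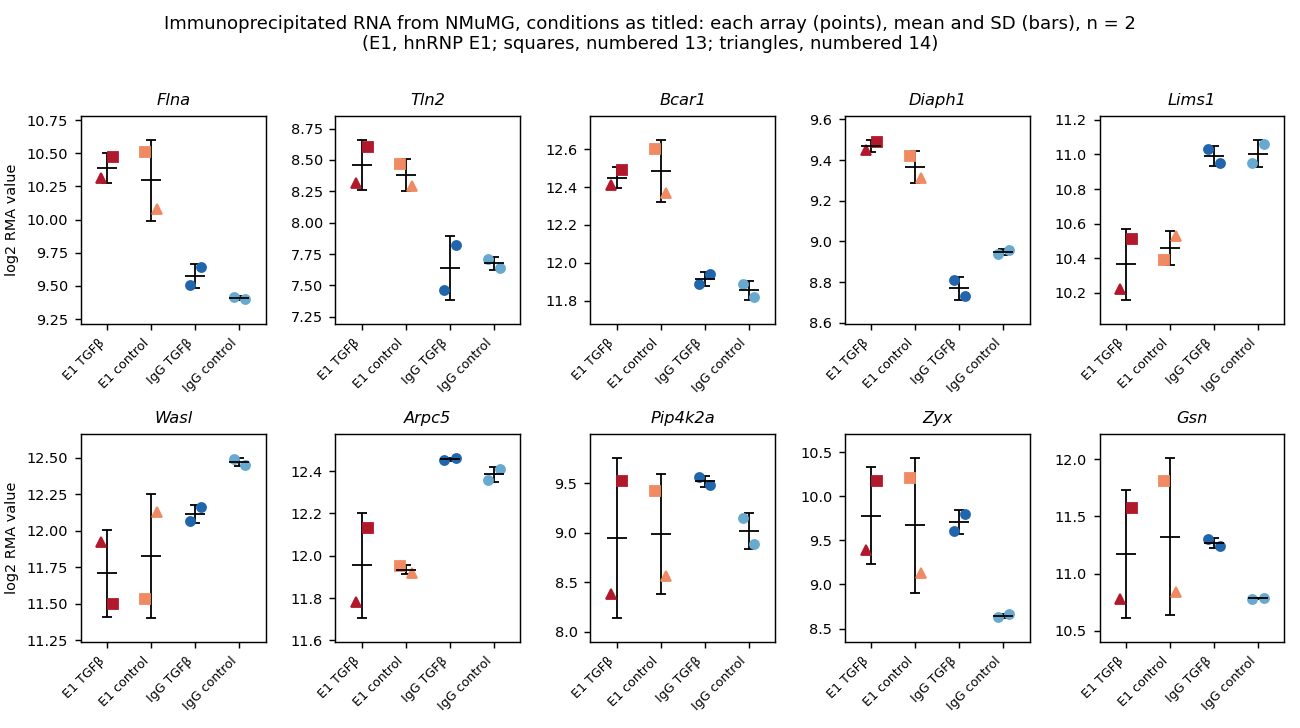
RNA of 10 genes precipitated with hnRNP E1 antibody or IgG from TGFβ-treated and untreated NMuMG cells, with conditions as titled. The vertical axis is the deposited log2 value, points are arrays, bars the mean and SD of 2 arrays, squares the hnRNP E1 arrays numbered 13 and triangles those numbered 14. Flna, Tln2, Bcar1 and Diaph1 lie higher with hnRNP E1 in every array, and in Pip4k2a, Zyx and Gsn the squares lie above the triangles in both conditions.

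Of the 38 genes Pxn alone passed in none of the 12 comparisons. It stood at 12.23 and 12.25 in total RNA of TGFβ-treated NMuMG, against 11.98 and 12.07 in untreated NMuMG, and at 12.11 and 12.09 in TGFβ-treated E1KD, against 12.03 and 12.01 in untreated E1KD. Its shift in NMuMG was 0.05 ± 0.18 (adjusted p = 0.833 from limma) by the probe set used. The other 2 probe sets of Pxn stood at -0.33, which passed, and -0.71, which did not.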

How the data were processed

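RNA was measured on an Affymetrix mouse expression array, with 32 arrays in 16 conditions of 2. Signals were deposited on the log2 scale. Per the submitters' processing notes the authors used RMA and Affymetrix Expression Console, with no version given in the sources used here, and nothing was normalized again. Arrays hold no read depth, and their number limits the precision. Interquartile ranges differ between arrays, so that the deposited values do not share 1 distribution. Groups follow the deposited titles.

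Probe sets above the overall median (5.52) on 8 or more arrays were kept, and 64 control probe sets were left out, which left 25432. Symbols came from the platform annotation, updated through gene identifiers. Contrasts were fitted with lmFit and eBayes of limma (version 3.58.1, R 4.3.3, 2-sided tests) over the 24 arrays without immunoprecipitation (12 residual degrees of freedom) or the 8 with it (4), with Benjamini-Hochberg adjustment over all probe sets kept and a threshold of 0.05. Shares of all genes use 1 probe set per gene. The procedure was tested on simulated data. Tables and plots used Python 3.11.15, pandas 2.3.3, numpy 2.4.6 and matplotlib 3.10.9.

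The members, lists and tests were chosen with earlier results of these data known. Named by rule were up to 5 increases and 5 decreases per comparison that passed with separate arrays, Asap1, Gna13, Pip4k2a and Pcbp1, and up to 3 genes from each of the lists of 47 other focal adhesion genes and 56 other actin regulators. Other members were named to complete a role group or a count, after their values were seen. Deviations of same-numbered replicates correlated at -0.592 to 0.323. The highest values were 0.323 for monosomal and 0.29 for total RNA of NMuMG, and the lowest came from the hnRNP E1 arrays, whose labels conflict. A pairing by replicate number was thus neither shown nor excluded, and the main fits used none. Alternatives were other filters, arrays in the fit, a block, a variance trend, scalings, the mean of probe sets, total RNA as denominator, array numbers as labels and each array left out.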

Additional observations from a re-analysis of the deposited data

Results flagged for a closer look

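Responses that differed between the cell lines were tested as interactions with limma. The response of total RNA to TGFβ differed, as E1KD minus NMuMG, for 6 of the 38 genes, by -1.29 for Zyx, -0.93 for Tes, -0.85 for Gsn, -0.48 for Myh9 and 0.76 each for Vasp and Pfn1.

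The polysome shift differed for 17 genes, by -2.94 for Pip4k2a, -2.09 for Vcl, -1.97 for Fermt2, -1.57 each for Enah and Cap1, 2.31 for Limk2, 1.04 for Limk1 and 0.70 for Flna.

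The polysomal minus monosomal difference of untreated cells differed for 30 genes, by 3.05 for Pip4k2a, 2.61 for Vcl, 2.31 for Gna13, 2.26 for Fermt2, 2.02 for Lims1, -2.09 for Limk2, -1.0 for Flna, -0.71 for Src, -0.67 for Vasp and -0.41 for Ilk. Both of these use the untreated monosomal arrays of NMuMG, which stood apart from the other arrays of ribosomal RNA. With total RNA as the denominator, 10 and 26 genes differed.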

How the results depend on the processing

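With 2 arrays per condition the precision is limited, and the size of change that passed differed between genes. In total RNA of NMuMG with TGFβ, Myh9 passed at 0.41 ± 0.09, whereas Enah at 0.44 ± 0.26 did not. Each standard error uses a variance of the gene over all arrays without immunoprecipitation, not over the total RNA arrays alone. The SD of Enah in total RNA of NMuMG was 0.04 with TGFβ and 0.03 without. In the TGFβ-treated monosomal pool of NMuMG it was 0.71. Values from 1 probe set per gene cannot separate isoforms. With total RNA as the denominator the counts were 7 for the shift in NMuMG, 5 for that in E1KD and 10 for their difference. Single values that passed in either form changed sign. In NMuMG these were Ilk (0.29), Src (0.15), Flna (0.09), Rock1 (-0.57) and Enah (-0.07). In E1KD they were Src (0.39), Rock1 (-0.25), Limk2 (0.12), Wasl (-0.14), Cap1 (-0.18), Arpc5 (-0.13), Actr3 (-0.06), Actn4 (-0.34) and Cttn (-0.52). Between the lines Enah turned to 0.06, Flna to -0.20 and Ssh1 to 0.27. In untreated cells Flna turned to 0.49, Ssh1 to -0.65, Evl to -1.16 and Iqgap1 to 0.53. The monosomal arrays of untreated NMuMG stood apart, and the cause was not tested.

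Without the filter on low values 3 genes passed for total RNA of NMuMG with TGFβ. In 1 fit of all 32 arrays 1 passed there, 6 for E1KD and 17 for hnRNP E1 minus IgG. A fit of only the arrays compared gave 13 for the difference of the total RNA responses and 6 for the polysomal pool of NMuMG. A variance trend gave 14 for hnRNP E1 minus IgG, and labels by array number 21, with 10 for the TGFβ change of that immunoprecipitate. The causes were not tested.

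Leaving out 1 array at a time gave, for total RNA, 1 to 2 genes in NMuMG, 5 to 6 in E1KD, 9 to 11 between the untreated lines and 5 for the difference of responses. It gave 29 to 32 for the monosomal and 13 to 20 for the polysomal pool, 28 to 31 for the shift in NMuMG, 10 to 13 in E1KD and 13 to 25 between them, 27 to 32 for the untreated polysomal minus monosomal difference, 5 to 13 for hnRNP E1 minus IgG and 0 for its TGFβ change.

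With the replicate block 16 genes in place of 17 passed for the difference of the shifts and 7 in place of 9 for hnRNP E1 minus IgG, and no other count moved. Over the genes named by rule and all alternatives, 1588 of 1783 values kept their side of the threshold, 159 no longer passed and 25 passed newly. The other 11 changed sign and passed in the main form, the alternative or both. A change of sign that passed in neither is counted among the 1588.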
